A study of Homo sapiens with 14 samples.

Results

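The human nuclear genome carries 47 genes for cysteine, phenylalanine and tryptophan tRNAs on chromosomes 1 to 22 and X in the RefSeq annotation of GRCh38, out of 429 tRNA genes in all. They were taken as every gene of biotype tRNA whose symbol begins with TRC, TRF or TRW, which gave 29 cysteine (Cys), 11 phenylalanine (Phe) and 7 tryptophan (Trp) genes. Each was read against regions bound by the progesterone receptor (PR) and by POLR3A, which forms the catalytic core of RNA polymerase III together with POLR3B, in T47D cells. T47D is an established breast cancer line that expresses the oestrogen and progesterone receptors, and all groups are that line grown in medium with serum and insulin. The control group received ethanol, the vehicle, for 1 h, and the other group progesterone (P4) for 1 h, at a dose not given in the sources used here. Chromatin immunoprecipitation and sequencing (ChIP-seq) had been done with 3 replicates per antibody and treatment and 1 pooled input per treatment, 14 libraries in all. The deposited values are 4 lists of regions, 1 for each antibody under each treatment, and the 3 replicates behind a list have no values of their own. No difference between lists could therefore be set against the spread between replicates, and no test between treatments was made. The label of the line was not checked against marker genes, because no expression values were used here.

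RNA polymerase III transcribes tRNA genes from a promoter that lies inside the gene. The factor TFIIIC binds its A box and B box, TFIIIC places TFIIIB just upstream of the gene, and TFIIIB recruits the polymerase, so that the enzyme is found over the short gene body itself. Cys tRNA reads cysteine codons with the anticodon GCA, Phe tRNA reads phenylalanine codons with GAA and carries the bulky base wybutosine beside its anticodon, and Trp tRNA reads the single tryptophan codon with CCA. PR is a nuclear receptor that binds DNA as a dimer once it holds progesterone. In the gene symbols the anticodon is followed by a family number and a copy number, and copies with the same family number carry the same mature tRNA. Reads from identical copies cannot be assigned to a single copy with confidence.

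On the chromosomes used, POLR3A had 29161 regions with vehicle and 47904 with P4. PR had 38933 with vehicle and 111515 with P4. The read depth of the libraries is unknown. For each region the authors give a fold enrichment over background and a −log10 q-value. Both served here to describe and rank regions inside a single list, and no change between treatments was read from them. A gene is said to have a region when a region reaches the gene body or the 100 bp on either side.

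POLR3A was found at 29 of the 47 genes under vehicle, 61.7%, where 82.3% of all 429 tRNA genes had it. Under P4 it was at 31 of the 47, 66.0%, where the share over all tRNA genes was 81.8%. PR was found at 4 genes under vehicle, 8.51%, beside 12.8% of all tRNA genes, and at 8 under P4, 17.0%, beside 26.1%. Every one of these PR-bearing genes also had POLR3A under the same treatment. In all 4 lists were 3 members, 6.38%, beside 11.0% of all tRNA genes, and 16 members, 34.0%, were in none, beside 14.7%. Both antibodies had regions at 8 members under P4, beside 25.9% of all tRNA genes. POLR3A was at 29 members under both treatments, beside 79.0%, and at 31 in either list, beside 85.1%. Of the 29, 20 had PR in neither list, beside 51.3%, and 22 members had POLR3A in some list and PR in none, beside 57.3%. PR was at 9 members in either list, beside 28.0%, and at 0 members without POLR3A, beside 0.233%. In each of the 4 lists the share of the members with a region was below that of all tRNA genes. These are not 4 separate results, since PR was at members only where POLR3A was, and the PR counts of 4 and 8 are small.

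The shares were unequal among the 3 isotypes, with no test made. Among Cys genes, 16 of 29 had POLR3A under vehicle (55.2%) and 17 under P4 (58.6%). Among the 21 tRNA symbol prefixes with 5 or more genes, that was the lowest share under vehicle and the second lowest under P4, where isoleucine genes had 56.5%. Phe genes had POLR3A at 7 of 11 under vehicle (63.6%) and 8 under P4 (72.7%). Trp genes had it at 6 of 7 under both treatments (85.7%), close to the 84.8% and 83.8% of the 382 tRNA genes outside the 3 isotypes. With the summit in the window, POLR3A was at 15 of 29 Cys, 5 of 11 Phe and 3 of 7 Trp genes under vehicle. Under P4 it was then at 16, 6 and 3, so the order of the 3 isotypes was reversed in both lists. PR was at 2 and 3 Cys genes under vehicle and P4, at 2 and 2 Phe genes, and at 0 and 3 Trp genes. The P4 share of Cys genes with PR, 10.3%, was the lowest of the 21 prefixes, followed by isoleucine genes with 13.0%. It rests on 3 genes, and under vehicle the Cys share was 5th from the lowest. The P4 share of Trp genes with PR, 42.9%, came after aspartate genes with 46.2%. The 3 Trp regions were weak (−log10 q from 5.39 to 7.59). PR under P4 was at 1 Trp gene with PR lists of equal length, at 2 with the gene body alone, at 1 with the summit in the window and at 0 at a −log10 q of at least 10. With 7 Trp genes, 1 gene alone makes 14.3% of the isotype.

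**Figure D1:**
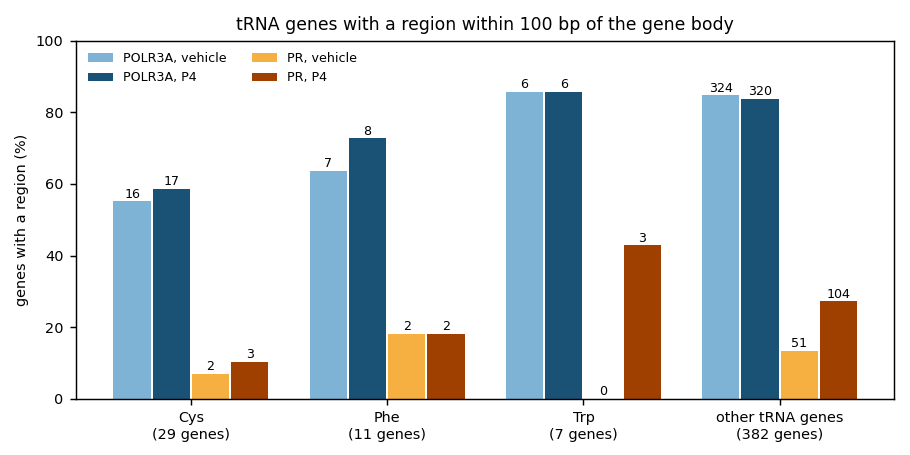
Share of tRNA genes (%) with a region within 100 bp of the gene body, for the Cys, Phe and Trp genes and the 382 other tRNA genes, in each of the 4 lists; the number over each bar is the number of genes. Cys genes have the lowest POLR3A bars of the 4 groups, with 16 and 17 of 29 genes, and Trp genes have no PR region under vehicle and 3 under P4.

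Among the 3 isotypes, cysteine genes had the widest range of POLR3A −log10 q, by a small margin over Phe genes. Under vehicle it ran from 3.24 to 589 over 16 Cys genes and from 14.5 to 595 over 7 Phe genes. The tRNA genes outside the 3 isotypes ran from 1.48 to 630. The strongest Cys genes were TRC-GCA2-3 and TRC-GCA2-4, 2 copies of 1 family. They lie 686 bp apart on chromosome 17 (39153734 to 39153805 and 39154491 to 39154562). A single POLR3A region covered both, and its −log10 q was 589 with vehicle and 571 with P4, at a fold enrichment of 87.6 and 79.7. It ranked 11th by −log10 q of the whole vehicle list and 8th of the P4 list, and its summit lay 22.5 bp from the midpoint of TRC-GCA2-4 and 735 bp from that of TRC-GCA2-3. Next came TRC-GCA4-1, also on chromosome 17 (38869292 to 38869363), with 449 and 505. At the other end, TRC-GCA13-1 had 3.24 with vehicle and 10.3 with P4, TRC-GCA23-1 had 5.59 and 10.3, and TRC-GCA2-1, alone on chromosome 4 (123508850 to 123508921), had 10.7 and 12.1. The vehicle region of TRC-GCA13-1 lay at percentile 43.0 of its list. The median over the Cys genes with a region was 28.6 under vehicle (16 genes) and 20.4 under P4 (17 genes), while over all tRNA genes with a region it was 354 in each list. Within the lists the Cys medians still lay at percentiles 97.4 and 97.8.

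Most Cys genes sit in a single array. On chromosome 7, 18 of the 29 lie between 149310190 and 149707740, a span of 398 kb with 1 tRNA gene of another isotype, TRS-AGA5-1, which also lacked POLR3A under vehicle and had it under P4. Of those 18, POLR3A was at 7 under vehicle and 8 under P4, so 10 of the 12 Cys genes that were in no list belong to this array. The array genes with POLR3A under vehicle had −log10 q from 3.24 to 112, with a median of 13.5. Those at the array's far end were the strongest, TRC-GCA17-1 with 81.8 under vehicle and 81.0 under P4, and TRC-GCA9-4 with 112 and 108. Of all tRNA genes with no other tRNA gene within 1 kb, as in this array, 8.39% had PR under vehicle and 18.8% under P4. No gene of the array had a PR region within 100 bp in either PR list. The nearest was at TRC-GCA16-1 (149546540 to 149546611), where a PR region began 578 bp from the gene under vehicle (−log10 q 35.0) and 403 bp from it under P4 (80.4). TRC-GCA16-1 had its nearest POLR3A region 48506 bp away under vehicle and 48490 bp under P4, and it was named after its values had been seen.

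Of the 11 Cys genes outside chromosome 7, 9 had POLR3A under both treatments, and the median −log10 q of these was 84.7 with vehicle and 90.9 with P4. The 2 without it, TRC-GCA6-1 and TRC-GCA9-1, form a pair on chromosome 3 (132229100 to 132231869) with the nearest POLR3A region 112033 bp away under vehicle and 45512 bp under P4. All 5 Cys genes of the chromosome 17 cluster (38861684 to 39154562) had POLR3A under both treatments, from 12.9 at TRC-GCA14-1 to 589 under vehicle. The 4 that are single genes far from other members also had it, TRC-GCA7-1 inside FNBP1L on chromosome 1 with 33.3 and 39.5, TRC-GCA2-1, TRC-GCA8-1 on chromosome 14 with 14.9 and 20.4, and TRC-GCA5-1 on chromosome 15 with 84.7 and 90.9. The Cys genes of chromosome 17 and the single genes therefore all had POLR3A, while 11 of 18 in the chromosome 7 array lacked it under vehicle.

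**Figure D2:**
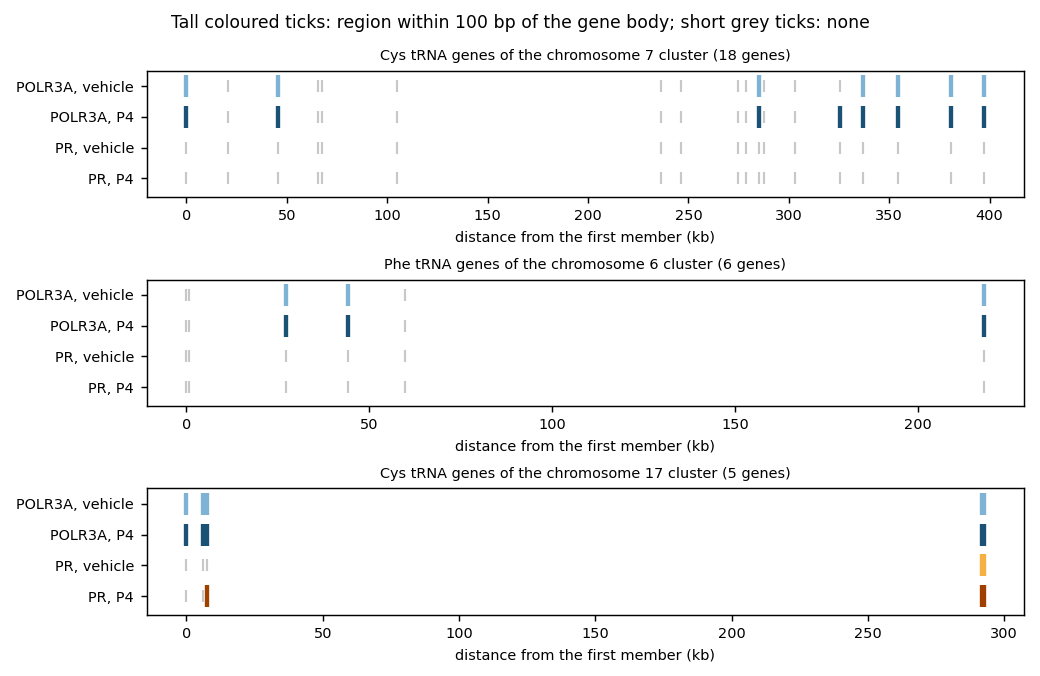
The 3 largest clusters of members, drawn by distance from the first member in kb, with a row for each list; tall coloured ticks mark genes with a region within 100 bp and short grey ticks genes without. In the chromosome 7 array 7 of 18 Cys genes have POLR3A under vehicle and none has PR, in the chromosome 6 cluster 3 of 6 Phe genes have POLR3A, and on chromosome 17 all 5 Cys genes do.

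Among phenylalanine genes, 6 of 11 had POLR3A regions with a −log10 q above 100 in both lists. TRF-GAA1-4 on chromosome 12 (124927843 to 124927915) reached 595 with vehicle and 568 with P4, 8th and 10th of the whole lists. Its region also covers the aspartate gene TRD-GTC2-9. TRF-GAA1-6 on chromosome 19 (1383362 to 1383434) had 572 and 529 from a region shared with the asparagine gene TRN-GTT2-6, whose midpoint was 92.5 bp from the vehicle summit, where that of the Phe gene was 109 bp away. TRF-GAA1-2 on chromosome 6 (28981672 to 28981744) had 569 and 546, in a region that also covers TRE-CTC1-6, a glutamate tRNA gene, and whose summits lay 2.50 and 18.5 bp from the midpoint of that neighbour. TRF-GAA1-3 on chromosome 11 (59557497 to 59557569) had 404 and 408, again from a region whose summit was at a neighbour, the lysine gene TRK-TTT5-1, 1051 and 1029 bp from the Phe gene's own midpoint. TRF-GAA3-1 on chromosome 6 (286 and 317) had regions with summits on the gene itself. TRF-GAA2-1 on chromosome 11 (130 and 128) had summits 55 and 58 bp from its midpoint, outside the gene body but within its window. TRF-GAA1-1 (14.5 and 13.9) was weak in both lists. TRF-GAA1-5 on chromosome 13 (94549650 to 94549722) had no region with vehicle and a weak one with P4 (6.34). TRF-GAA4-1, TRF-GAA5-1 and TRF-GAA6-1, all on chromosome 6, were in none of the 4 lists.

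The chromosome 6 cluster of Phe genes (28763597 to 28981744) lies among other tRNA genes, which gives a comparison within 1 stretch of 218 kb. POLR3A was at 3 of the 6 Phe genes there under each treatment, and at 15 of the 15 tRNA genes of other isotypes in the same span. PR was at 0 of the 6 Phe genes in both lists, and at 2 of the 15 others under vehicle and 5 under P4. The 3 Phe genes of the cluster without POLR3A lay 5029 bp or more from the nearest POLR3A region under vehicle.

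Tryptophan genes had strong POLR3A at 5 of 7 loci. TRW-CCA2-1 on chromosome 17 (19508181 to 19508252), with no other tRNA gene within 10 kb, reached 563 with vehicle and 528 with P4, with summits 20.5 and 11.5 bp from its midpoint. TRW-CCA3-2 on chromosome 6 had 334 and 322, also with the summit on the gene. For the other 3 the region extended over neighbours and its summit lay at one of them. TRW-CCA4-1 on chromosome 12 (557 and 521) shared a region with the aspartate gene TRD-GTC1-1, 0.5 and 4.5 bp from whose midpoint the summits lay. TRW-CCA3-3 on chromosome 17 (516 and 491) shared a region with TRS-GCT4-3, TRT-AGT1-1 and TRI-AAT5-5. TRW-CCA1-1 on chromosome 17 (488 and 535) shared a region 2623 bp wide under vehicle with 3 further genes, and its summit was 1372.5 bp away at TRD-GTC2-11. TRW-CCA3-1 on chromosome 6 was weak (13.5 and 12.1), and TRW-CCA5-1 on chromosome 7 (99469684 to 99469755) was in none of the lists.

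**Figure D3:**
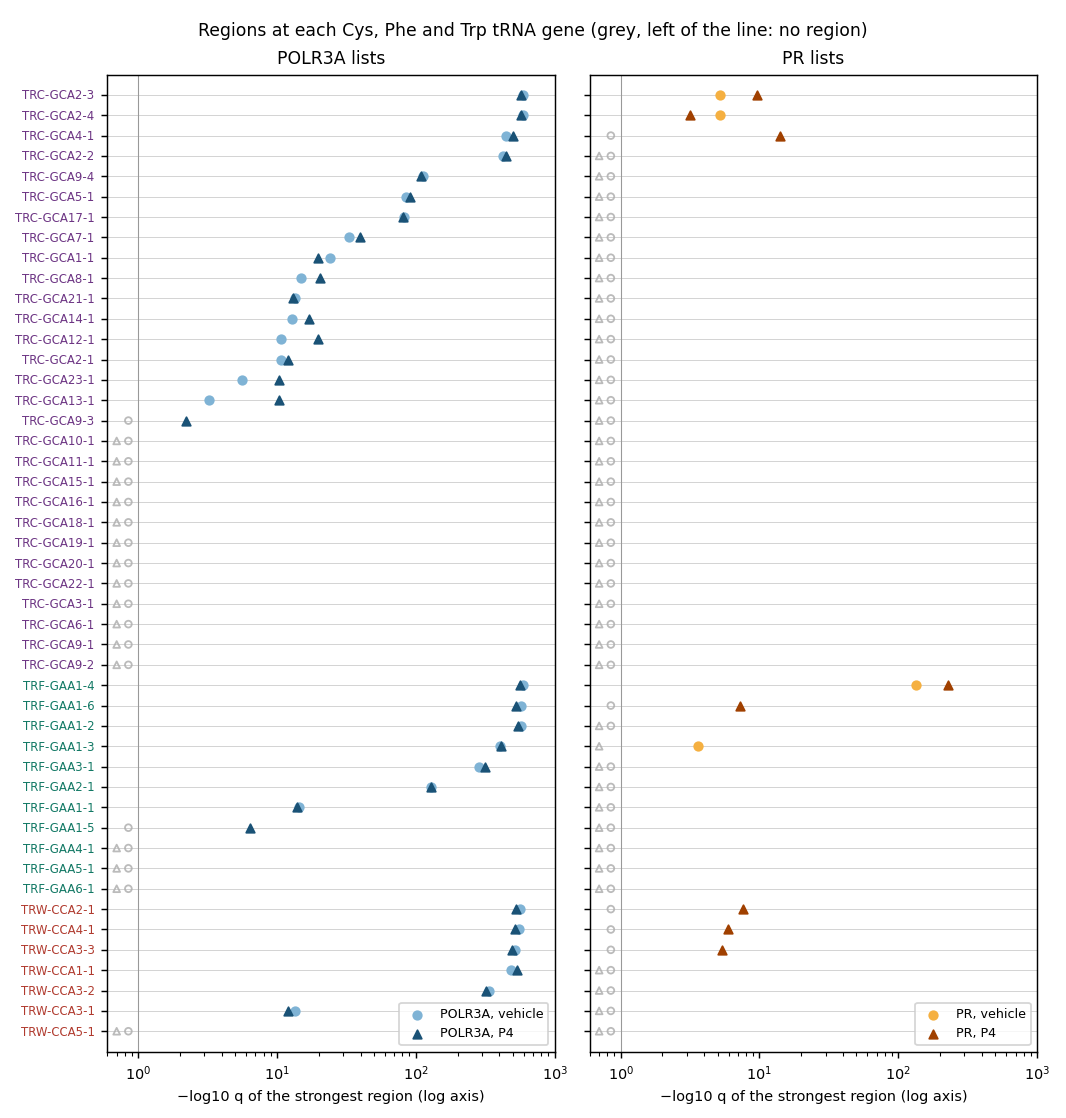
The −log10 q of the strongest region at each of the 47 genes (log axis), POLR3A lists on the left and PR lists on the right, circles for vehicle and triangles for P4; open grey marks left of the line stand for no region. POLR3A values run from 2.21 to 595 and vehicle and P4 marks of a gene mostly lie together, whereas all PR values except those of TRF-GAA1-4 (134 and 229) are below 15.

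Copies of 1 family spanned a wide range of POLR3A values. The 47 genes form 34 families, of which 30 have a single gene. Of the 6 copies of TRF-GAA1, on 5 chromosomes, 5 had POLR3A under vehicle with −log10 q from 14.5 to 595, and the copy on chromosome 13 had none. Of the 4 copies of TRC-GCA2, the one on chromosome 4 had 10.7 and those on chromosome 17 had 427 to 589. In the TRC-GCA9 family, TRC-GCA9-4 had 112, TRC-GCA9-3 had a region under P4 only (2.21), and TRC-GCA9-1 and TRC-GCA9-2 had none. The 3 copies of TRW-CCA3 had 13.5, 334 and 516. The values of TRW-CCA3-3, TRF-GAA1-2, TRF-GAA1-3 and TRC-GCA2-3 came from regions whose summits lay at a neighbouring tRNA gene. Those of TRF-GAA1-4, TRF-GAA1-6 and TRC-GCA2-4 came from regions that also cover another tRNA gene. At TRF-GAA1-6 the vehicle summit was nearer to that neighbour. For all of these copies the values are not measures of the copy alone. How reads from identical gene bodies were placed is not given in the sources used here, and its part in these values was not tested.

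**Figure D4:**
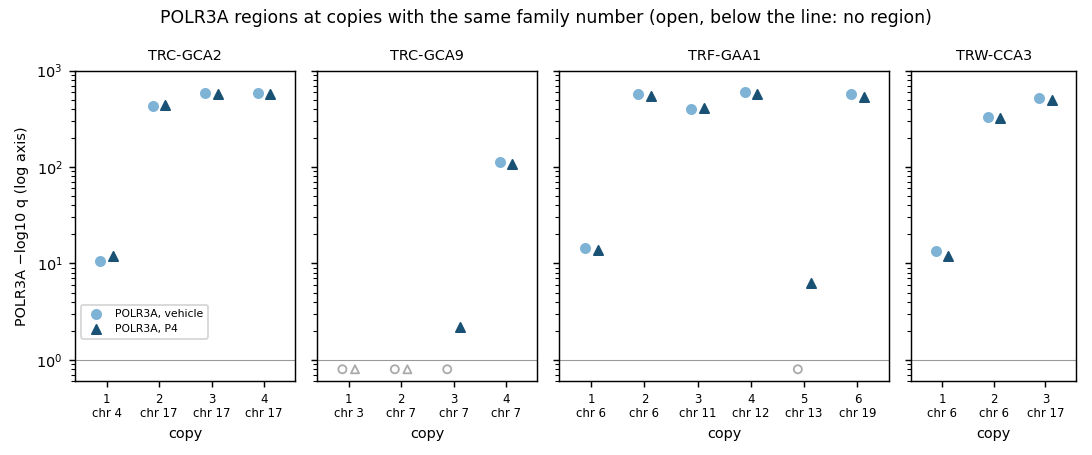
POLR3A −log10 q (log axis) at each copy of the 4 families with more than 1 gene, circles for vehicle and triangles for P4, with the chromosome under each copy; open marks below the line stand for no region. In TRF-GAA1 the copies run from no region on chromosome 13 to 595 on chromosome 12 under vehicle, and in TRC-GCA9 a single copy exceeds 100.

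Counting POLR3A summits up to 500 bp from the middle of the gene, the median lay 18.5 bp off for 23 members under vehicle and 21.5 bp off for 25 under P4. Of these, 91.3% and 100% lay within 100 bp, beside 91.7% and 92.4% over all tRNA genes. Over all tRNA genes the medians were 16.5 and 16 bp. Of the 29 members with POLR3A under vehicle, 6 had the summit outside their own window, TRF-GAA1-2, TRF-GAA1-3, TRW-CCA1-1, TRW-CCA3-3, TRW-CCA4-1 and TRC-GCA2-3, and they were the same 6 under P4. When the summit had to lie within 100 bp of the gene, POLR3A was at 15 Cys, 5 Phe and 3 Trp genes under vehicle and at 16, 6 and 3 under P4. By share of each isotype this order is the reverse of that with any overlap. The share of all tRNA genes at this setting is not given here. The median width of the regions under vehicle was 356 bp for Cys, 1511 bp for Phe and 1084 bp for Trp genes, beside 685 bp over all tRNA genes with POLR3A. Under P4 it was 448, 915.5 and 1106 bp, beside 637 bp, so the order of Phe and Trp was not the same in the lists. A region that covers several tRNA genes gives each of them the value of its summit. That held for 9 members in each POLR3A list, those 6 with TRC-GCA2-4, TRF-GAA1-4 and TRF-GAA1-6, and their values are not measures of the gene alone.

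Progesterone receptor regions were found at 9 of the 47 genes in either list, 3 Cys, 3 Phe and 3 Trp. The strongest by far were at TRF-GAA1-4, where −log10 q and fold were 134 and 25.1 with vehicle and 229 and 34.9 with P4, at percentiles 97.5 and 98.8 of their lists. These regions reached across the gene (124927659 to 124928843 and 124927704 to 124929127), but their summits lay 549 and 563 bp from its midpoint, while the POLR3A summits were 13 and 8 bp from it. TRC-GCA2-3 and TRC-GCA2-4 shared 1 PR region under vehicle that lay between the genes (39153843 to 39154471, 5.17, fold 4.00). Under P4 the pair had 3 separate PR regions within 100 bp, 1 at TRC-GCA2-3 (9.53, summit 825.5 bp away) and 2 flanking TRC-GCA2-4 (3.15 and 3.05, summits 131.5 and 306.5 bp away). These 3 genes are the members found in all 4 lists.

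The other 6 had PR within 100 bp under a single treatment. Under vehicle alone it was at TRF-GAA1-3 (3.60, summit 295 bp away). Under P4 it was at TRC-GCA4-1 (14.2, fold 6.19, summit 321.5 bp away), TRF-GAA1-6 (7.30 and 4.47 for 2 regions on either side of the gene, summits 145 and 469 bp away), TRW-CCA2-1 (7.59, 75.5 bp), TRW-CCA4-1 (5.92, 174.5 bp) and TRW-CCA3-3 (5.39, 181.5 bp). So 5 members, 10.6%, had PR under P4 and not under vehicle, beside 15.2% of all tRNA genes, and 1 member, 2.13%, the reverse, beside 1.86%. At TRW-CCA4-1 and TRF-GAA1-6 a vehicle PR region outside the window lay inside a P4 region that reached it, so both lists held PR there. The P4 list is the longer one. With both PR lists taken at the same length, 38933 regions, PR was at 4 members under each treatment, with 2 under P4 alone, TRC-GCA4-1 and TRW-CCA2-1, and 2 under vehicle alone. The shares of all tRNA genes at equal length are not given here, so whether this is particular to the members cannot be told. The members' median PR region lay at percentile 45.4 of the vehicle list (4 genes) and 65.5 of the P4 list (8 genes), beside 31.2 and 59.9 for all tRNA genes with PR.

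Several members lay just inside or just outside the window. The PR regions of TRW-CCA3-3, TRC-GCA2-4 and TRF-GAA1-6 under P4, and those of TRC-GCA2-3 and TRC-GCA2-4 under vehicle, came within 100 bp but did not touch the gene body. Just outside were PR regions under P4 at TRF-GAA1-1, 113 bp away (2.09), and TRF-GAA1-2, 170 bp away (9.17), and under vehicle at TRF-GAA1-6, 247 bp away (3.94), and TRW-CCA4-1, 430 bp away (2.68). Farther out, TRF-GAA1-3 had a P4 region 517 bp away (2.81), and TRW-CCA3-3 a vehicle region 583 bp away (7.14). With 500 bp on each side, PR was at 6 members under vehicle and 11 under P4, and 5 were in all 4 lists. The 2 added under vehicle were TRW-CCA4-1 and TRF-GAA1-6, and the 3 added under P4 were TRF-GAA1-1, TRF-GAA1-2 and TRC-GCA16-1. For POLR3A the window made no difference, since no gene without a region had one within 1 kb.

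**Figure D5:**
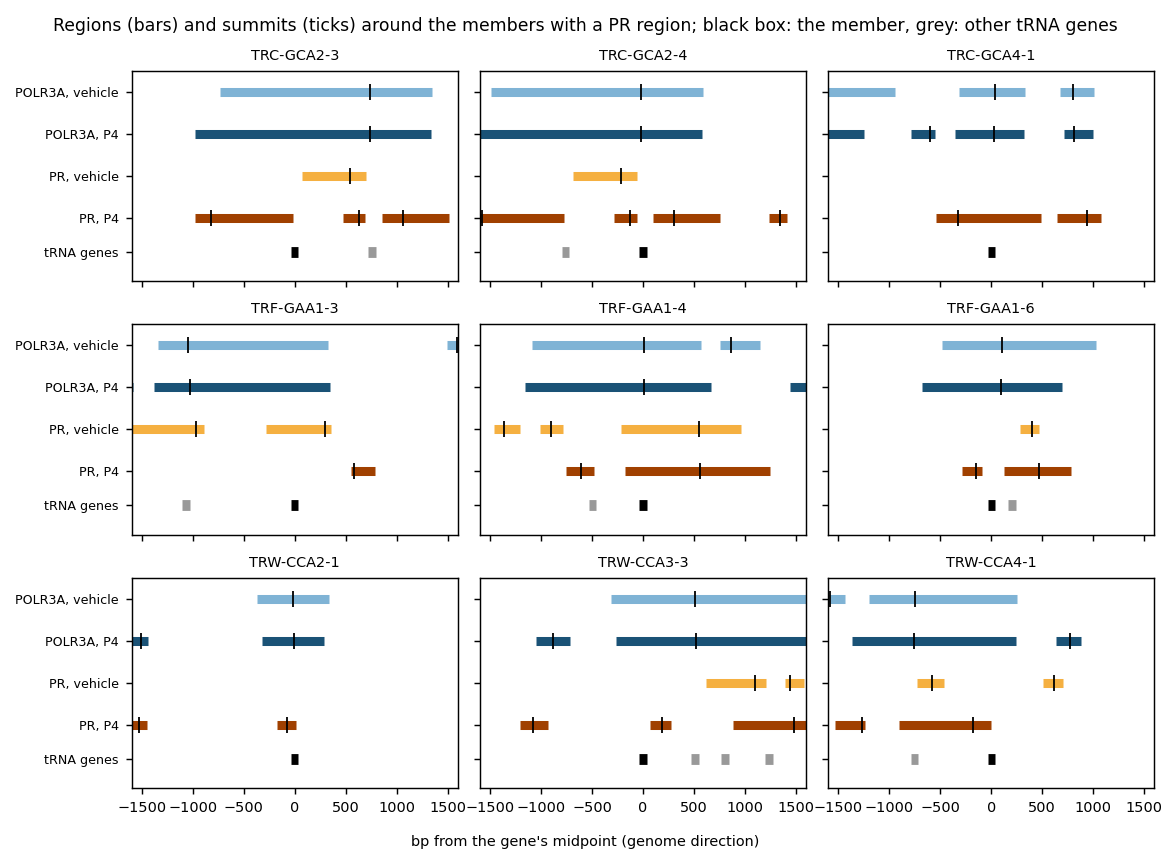
Regions (bars) and summits (black ticks) of the 4 lists within 1600 bp of the 9 members that have a PR region, by distance in bp from the gene's midpoint in genome direction; black boxes are the member and grey boxes other tRNA genes. PR summits sit to the side of the gene, the closest 75.5 bp from the midpoint at TRW-CCA2-1, and the POLR3A bars of 7 of the 9 also cover another tRNA gene.

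For PR summits up to 500 bp, and counting genes whose PR region missed the window, the median was 295 bp for 3 members under vehicle and 178 bp for 8 under P4, and 0 and 1 of them were within 100 bp, beside 26.2% and 24.4% over all tRNA genes. These are other sets of genes than those behind the POLR3A medians. The strongest regions of the antibodies in a gene's window were also compared, at any summit distance. The PR summit was the nearer at TRF-GAA1-3 and TRC-GCA2-3 under vehicle, and at TRW-CCA4-1 and TRW-CCA3-3 under P4. There the POLR3A summit lay at a neighbouring tRNA gene. With PR regions outside the window counted too, the PR summit was also nearer at TRW-CCA4-1 under vehicle. Under P4 that held for TRF-GAA1-2, TRF-GAA1-3, TRC-GCA2-3 and TRW-CCA1-1. Of the 12 members with another tRNA gene within 1 kb, 4 had PR under vehicle and 6 under P4, and of the 35 without such a neighbour, 0 and 2. Over all 429 genes the same split gave 22.9% and 42.7% of 131 genes with a close neighbour and 8.39% and 18.8% of the 298 without. PR under P4 was at 3 of the 5 members with an end of a coding gene at most 1 kb away and at 5 of the other 42, beside 55.6% and 21.9% over all tRNA genes. These splits overlap, since TRC-GCA2-3 and TRF-GAA1-6 lie close both to another tRNA gene and to a coding gene end.

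All 29 members with a POLR3A region under vehicle also had one under P4. The 2 found under P4 alone, 4.26% beside 2.80% of all tRNA genes, were TRF-GAA1-5 (6.34) and TRC-GCA9-3 (2.21, percentile 18.8 of the list), and none was found under vehicle alone, beside 3.26%. At equal list length TRC-GCA9-3 was no longer in the P4 list.

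Genes that charge, modify and transcribe these tRNAs were examined by regions within 1 kb of either end of the gene. The 24 listed genes had POLR3A at 17 under each treatment, where 30.8% and 33.6% of all protein-coding genes had it, and PR at 11 under vehicle and 20 under P4, beside 23.9% and 50.2%. CARS1, the cytosolic cysteinyl-tRNA synthetase, had the strongest PR region of the list, 43.3 with vehicle and 185 with P4, and a POLR3A region with P4 alone (3.72). FARSA, the catalytic subunit of the phenylalanyl-tRNA synthetase, had 8.05 and 4.95 for POLR3A and 2.42 and 2.81 for PR, and its partner FARSB had POLR3A (4.19 and 3.72) and no PR. WARS1, which charges Trp tRNA, had 2.27 and 3.40 for POLR3A and 3.19 and 10.5 for PR. Of the mitochondrial enzymes, FARS2 had no region in any list. TYW1, which acts in wybutosine synthesis on Phe tRNA, had regions in all 4 lists, with values from 4.89 to 7.21. WDR6, which takes part in ribose methylation of the anticodon loop, had PR of 4.92 under vehicle and 67.1 under P4. All POLR3A values at these ends were below 12. Under vehicle, WARS1, BDP1, GTF3C1 and WDR6 (2.27 to 2.93) lay below the lowest Cys gene (3.24). Under P4, BRF1 (1.86) lay below the lowest Cys gene (2.21). The other values lay within the range of the weaker Cys genes. The medians at members under vehicle were 28.6 for Cys, 404 for Phe and 502 for Trp genes. The Phe and Trp medians came from regions whose summits lay at neighbouring tRNA genes, so they are not measures of those genes alone. Of the TFIIIC subunit genes, 5 of 6 had POLR3A under vehicle and 4 under P4. MAF1, the repressor of RNA polymerase III, had a region in each list.

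The stretches before the starts of the 4 cytosolic synthetase genes were compared with the summits, a choice made after the regions had been seen. CARS1 had PR summits 224 and 237 bp before its start (−log10 q 3.59 under vehicle and 20.8 under P4) and no POLR3A summit, and FARSA had POLR3A summits 113 and 114 bp before its start and no PR summit, while FARSB and WARS1 had neither in the 250 bases. For CARS1 the first of 2 RefSeq starts was used, and WARS1, which also has 2, was read at 1 of them. Both sequences are shown because each holds the summits of 1 antibody under both treatments. They are the 250 bases before the start, 5′ to 3′ on the minus strand, from RefSeq (GRCh38.p14), at chr11:3057424-3057673 for CARS1 and chr19:12933712-12933961 for FARSA. Capitals mark TGTTCT, or AGAACA on the other strand, the half-site that steroid receptors such as PR recognise.
CARS1: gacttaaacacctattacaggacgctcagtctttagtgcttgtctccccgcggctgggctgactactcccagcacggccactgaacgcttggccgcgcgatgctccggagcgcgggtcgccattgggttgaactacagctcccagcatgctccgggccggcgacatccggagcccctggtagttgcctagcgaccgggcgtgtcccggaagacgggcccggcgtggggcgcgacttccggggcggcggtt
FARSA: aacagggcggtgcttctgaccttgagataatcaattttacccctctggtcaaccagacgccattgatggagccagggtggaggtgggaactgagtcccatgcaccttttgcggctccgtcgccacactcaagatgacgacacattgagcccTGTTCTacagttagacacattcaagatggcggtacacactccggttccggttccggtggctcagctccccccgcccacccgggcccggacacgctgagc
The half-site occurs 1 time in the FARSA stretch and 0 times in that of CARS1. Of the stretches without a summit, that of FARSB holds it 1 time and that of WARS1 0 times, and 12.4% of the 35116 stretches of the same length hold it. A match or its absence describes these letters alone.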

How the data were processed

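ChIP-seq for PR and POLR3A had been done in T47D cells given ethanol or P4 for 1 h. Per the submitters' processing notes, cutadapt, Bowtie2 and MACS2 were used with the build hg38; their versions, settings, control and pooling are not given in the sources used here. In each deposited list the authors give a fold enrichment (a ratio), a −log10 q (and −log10 p), a whole-number score (about 10 times the −log10 q) and a summit position; the score and −log10 p were not used here.

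Regions on chromosomes 1 to 22 and X were read with Python 3.11.15 and pandas 2.3.3. The RefSeq gene table of GRCh38.p14 also lists genes of alternate sequences, so each chromosome was kept up to where start positions fell back (58419 of 59098 genes). A gene had a region when at least 1 bp lay within 100 bp of its body; where there were several, the strongest by −log10 q gave the values. Members at most 500 kb apart formed a cluster. Percentiles are the share of a list at or below a region. Overlap counts equalled those of bedtools 2.31.1 for 4 of 4 lists, and the code recovered 20 of 20 simulated lists of planted regions.

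Named were all Phe and Trp genes and, of the Cys genes, those with PR, with POLR3A under a single treatment, and the 3 strongest and 3 weakest by POLR3A −log10 q under vehicle, with other Cys genes named, after their values had been seen, to describe clusters and families. The members and lists were chosen with earlier results of these data known. As alternatives, the −log10 q minimum was set to 5 or 10, and the others were the gene body alone, 500 bp on each side, the summit in the window, lists of equal length, members within 1 kb as 1 locus, rank by fold, distinct regions, and summits within 200 or 1000 bp.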

Additional observations from a re-analysis of the deposited data

How the results depend on the processing

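No paired analysis was possible because the replicates of a group share 1 list. Of 12 counts (4 lists, 4 for regions under a single treatment, all 4 lists, both antibodies under vehicle and under P4, no list), none moved by more than 1.5 times at a −log10 q of at least 5 or with members within 1 kb as 1 locus, and the counts of genes with POLR3A and of genes in no list moved by no more than that under any alternative. At a −log10 q of at least 10, PR was at 1 member under vehicle and 2 under P4, each with POLR3A, with 1 under P4 alone, 0 under vehicle alone and 1 in all 4 lists. With the gene body alone, PR was at 2 and 5, each with POLR3A, and 1 was in all 4 lists; with 500 bp on each side, 5 were. With the summit in the window, PR was at 0 and 2, each with POLR3A, 2 under P4 alone, 0 under vehicle alone and 0 in all 4 lists. At equal list length, PR was at 4 under P4, each with POLR3A, 2 under P4 alone and 2 under vehicle alone, and POLR3A at 1 under P4 alone. Ranked by fold, the median percentile was 99.3 for POLR3A under vehicle, 55.7 for PR under vehicle and 66.8 under P4, against 99.2, 45.4 and 65.5 by −log10 q; with distinct regions it was 99.1 for POLR3A under vehicle. With summits within 1000 bp the median distances were 20.5 and 22.5 bp for POLR3A and 544.5 and 321.5 bp for PR; within 200 bp that of PR under P4 was 145 bp, and PR under vehicle had no such summit. Fewer regions or genes enter under each stricter setting. Shares of all tRNA genes under these alternatives are not given here, so the counts describe the members alone. Depth is unknown, so the absence of a region is not absence of binding.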

Other observations

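The annotation also holds 7 pseudogenes with Cys or Phe symbols on the chromosomes used. None had a POLR3A region under either treatment, and none had PR under vehicle. Under P4, 1 had a PR region, TRF-GAA9-1 on chromosome 1, with −log10 q of 2.87.

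Within the span of the chromosome 7 array, POLR3A had 8 regions under vehicle, 7 of them at Cys genes, and 11 under P4, 8 of them at Cys genes. PR had 2 regions in the span under vehicle and 10 under P4, of which 0 were within 100 bp of a Cys gene. The windows of the Cys genes cover a small part of that span. On chromosome 17, the span of the Cys cluster held 4 PR regions under vehicle and 28 under P4, with 1 and 4 of them at Cys genes.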
